A study of Mus musculus with 6 samples.

Results

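Translation initiation factors are the proteins that bring the initiator tRNA, the ribosome and a messenger RNA together. Their genes were followed in 6 RNA sequencing libraries of mouse bone marrow-derived macrophages, cells grown out of bone marrow with the cytokine M-CSF. The 57 genes are the rows of the deposited table whose symbol begins with Eif and a digit, out of 55401 rows, with pseudogene rows left out (10 rows). The groups are 3 libraries labelled Mettl3 knockout (Mettl3-/-, KO) and 3 labelled wild type (WT). All came from C57BL/6 bone marrow cultured for 7 days with 40 ng/mL M-CSF and 10% serum before a treatment that the labels do not specify. Mettl3 encodes the catalytic subunit of the methyltransferase that places N6-methyladenosine on messenger RNA. The labels do not say how the allele was made, in which cells it is deleted, the age or sex of the mice, or whether libraries of a group came from separate animals, so p-values measure the spread between these libraries, which may be technical.

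In textbook terms, eIF2 carries the initiator tRNA to the small ribosomal subunit together with eIF1, eIF1A, eIF3 and eIF5, and eIF4F (the cap-binding eIF4E, the scaffold eIF4G and the helicase eIF4A) recruits the capped messenger RNA. The joined particle scans to a start codon, after which eIF5B helps the large subunit to join. The step is regulated chiefly through kinases that phosphorylate eIF2 and so block its recycling by eIF2B, and through eIF4E-binding proteins, which hold eIF4E until mTOR phosphorylates them. Macrophages use both controls when they sense infection or stress.

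No fall of the targeted gene, Mettl3, was seen in labelled KO. Its level was 2.50, 2.56 and 2.93 FPKM (fragments per kilobase of exon, scaled to library size) there, against 2.62, 2.91 and 2.26 FPKM in WT, with values here and below given in the order of replicates 1, 2 and 3. The groups overlapped (log2 fold change 0.02, labelled KO over WT, SE 0.11, edgeR adjusted p = 0.93; exact two-sided permutation p = 0.9, where 3 against 3 libraries cannot go below 0.1). The gene-level value does not say whether part of the transcript is missing, and every direction below is therefore one between the libraries labelled KO and the WT libraries. Library totals were 68145877 to 77997742 estimated counts for labelled KO and 67280390 to 68658821 for WT. The macrophage genes Lyz2, Csf1r and Adgre1 were abundant, and the lowest value among them was 382 FPKM. Their summed level with Itgam, Cd68 and Mertk was 8080 to 8162 FPKM in labelled KO and 16102 to 16447 FPKM in WT, and without Lyz2 it was 2087 to 2136 FPKM in labelled KO and 2016 to 2102 FPKM in WT. The markers did not move together: Lyz2 was lower in labelled KO (log2 fold change -1.26, adjusted p = 3.33e-07) and so was Adgre1 (-0.33, adjusted p = 0.000368), while Csf1r was higher (0.26, adjusted p = 3.14e-05). The sum of 7 monocyte markers was 555 to 568 FPKM in labelled KO and 349 to 357 FPKM in WT. Sums of 5 erythroid and megakaryocyte markers were 134 to 145 FPKM in labelled KO and 177 to 183 FPKM in WT, with 4 of the 5, the erythroid genes among them, below 0.1 FPKM in every library. Sums of neutrophil markers were 50.5 to 60.8 FPKM in labelled KO and 59.1 to 64.6 FPKM in WT, and no sum of dendritic, T and NK, B or stromal cell markers passed 7.62 FPKM in labelled KO or 6.39 FPKM in WT. The part of these marker differences in the results below was not tested, and in bulk RNA fewer cells of a type and less RNA per cell cannot be told apart.

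Initiation factor RNA was nearly level between the groups. Of the 57 genes, 53 passed the filter on low counts and were tested. Only 4 of them were called at an adjusted p under 0.05: Eif3f, Eif4b and Eif2s3y were lower in labelled KO, and Eif2ak3 was higher. Among all genes, 12.7% of those tested were called, 7.01% higher and 5.67% lower. Among tested genes with a mean of at least 10 FPKM, where a small change is easier to call, the share was 28.1%, beside 2 of the 37 initiation factor genes at that level. The estimates ran from -0.46 to 0.61 on the log2 scale with a median of -0.05, and 33 of 53 lay below 0, against a median of -0.005 and 50.7% below 0 over all tested genes. At a mean of at least 10 FPKM, 26 of the 37 initiation factor genes (70.3%) lay below 0, beside 52.0% of all genes at that level. For 39 of the 53 genes (73.6%) the 95% interval lay within a 1.25-fold change in either direction, as it did for 31.5% of all tested genes. Among genes with a mean of at least 10 FPKM it did so for 33 of 37 initiation factor genes and for 65.2% of all. Without correction for the number of genes, 22 of the 53 (41.5%) had p under 0.05, beside 26.5% of all tested genes and 46.2% of those with a mean of at least 10 FPKM.

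**Figure D1:**
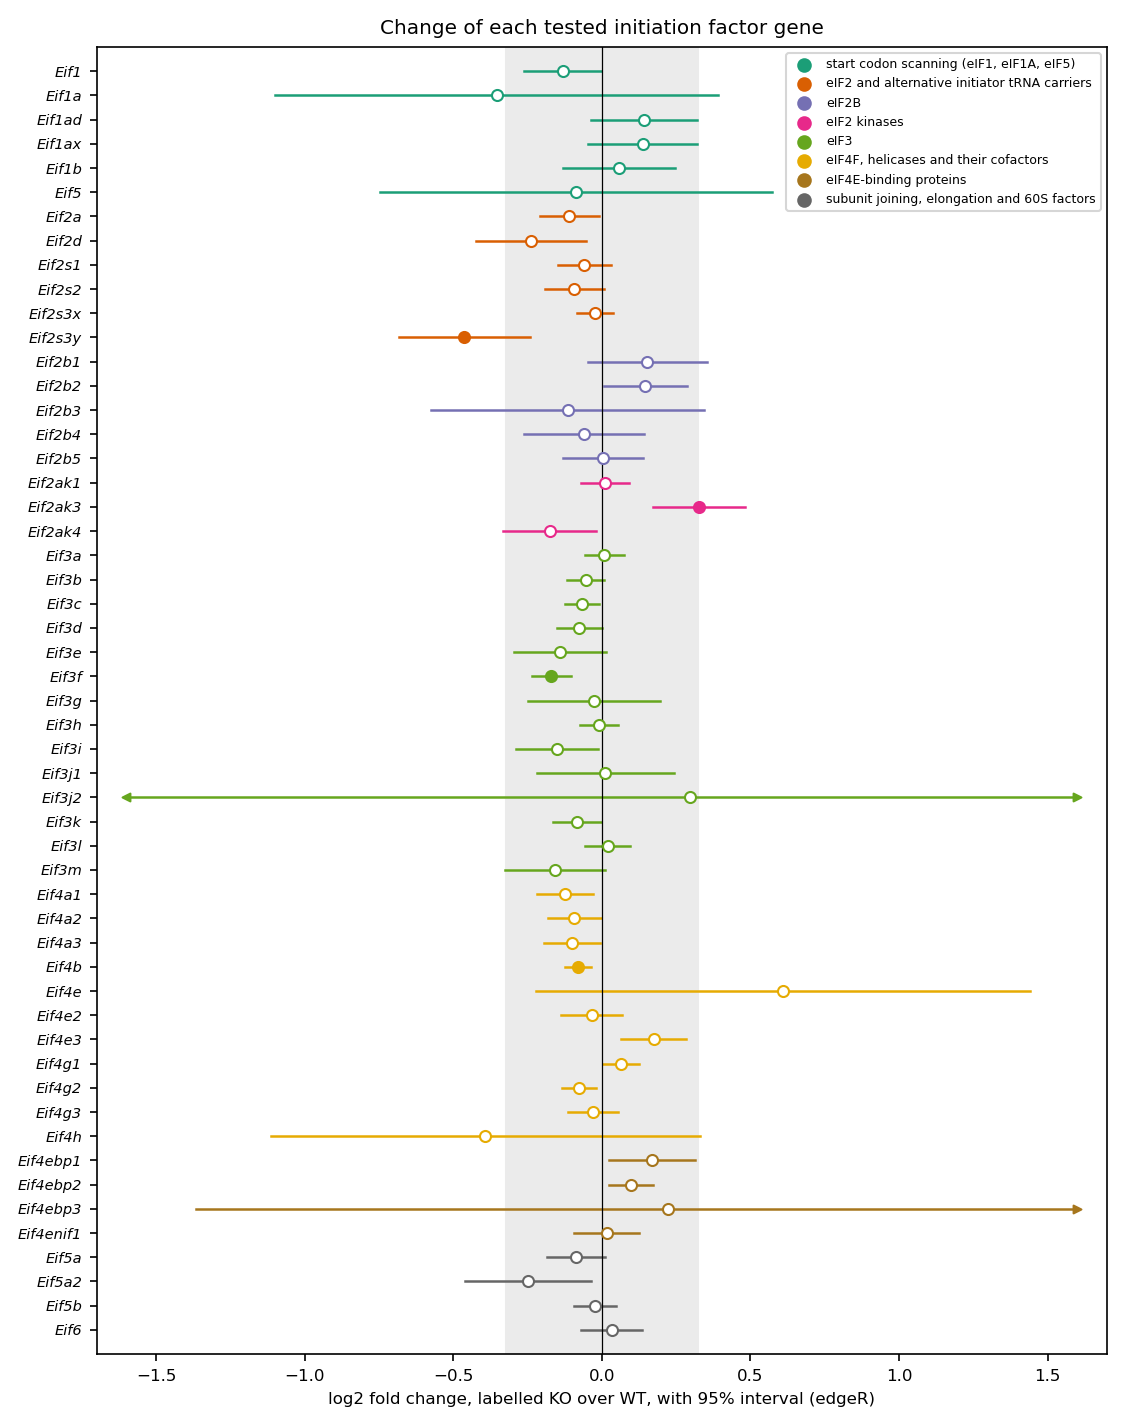
Log2 fold change of each of the 53 tested initiation factor genes (labelled KO over WT, edgeR) with its 95% interval, coloured by role; filled circles mark the 4 called genes, and arrowheads mark intervals that run past the axis. The grey band is a 1.25-fold change either way, and 39 of the 53 intervals lie inside it.

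The groups' FPKM values did not overlap for 22 of the 53 genes, beside 33.8% of all tested genes. In 16 genes every library labelled KO was below every WT library (14.6% of all tested genes), and in 6 every library labelled KO was above (19.1%). These shares are over all tested genes and were not taken at matched expression. The 6 above WT were Eif2ak3, Eif2b2, Eif4e3, Eif4ebp1, Eif4ebp2 and Eif4g1. The genes accounted for 0.599%, 0.613% and 0.614% of all estimated counts in labelled KO, against 0.621%, 0.628% and 0.625% in WT. Their FPKM added up to 1289 ± 12.4 in labelled KO and 1324 ± 4.86 in WT (SD, n = 3 each), a ratio of 0.974. The FPKM of all 55401 rows together had a ratio of 0.964 (318103 in labelled KO and 329944 in WT). Much of that difference came from Lyz2, which averaged 6012 FPKM in labelled KO and 14189 FPKM in WT. The ratio of all rows is therefore no measure of how most other genes moved.

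The promoters of the 4 called genes, and of Eif2s3x, the X-linked copy of Eif2s3y, are shown so that the sequence around their starts can be compared. Each runs from 100 bases before to 20 bases after the transcript start that RefSeq annotates on GRCm38.p6, written on the gene's strand, with the start counted as base 1. Capitals mark CACGTG (the E-box bound by Myc and related factors, which reads the same on both strands) and any unbroken run of at least 8 C or T that comes within 5 bases of the start. Pyrimidine runs at the very start of the transcript are known from many messenger RNAs of the translation machinery, whose translation follows mTOR. The windows are chr7:108934315-108934434 (plus strand) for Eif3f, chr15:102073673-102073792 (plus) for Eif4b, chrY:1010495-1010614 (plus) for Eif2s3y, chrX:94212632-94212751 (minus) for Eif2s3x and chr6:70844415-70844534 (plus) for Eif2ak3.
Eif3f: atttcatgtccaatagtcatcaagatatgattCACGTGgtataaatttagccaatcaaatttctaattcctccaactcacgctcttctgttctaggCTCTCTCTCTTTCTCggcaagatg
Eif4b: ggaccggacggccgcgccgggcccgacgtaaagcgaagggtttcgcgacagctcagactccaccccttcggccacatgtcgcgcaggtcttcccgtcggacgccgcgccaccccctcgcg
Eif2s3y: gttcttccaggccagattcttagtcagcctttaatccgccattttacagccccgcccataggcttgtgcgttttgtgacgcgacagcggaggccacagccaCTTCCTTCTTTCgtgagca
Eif2s3x: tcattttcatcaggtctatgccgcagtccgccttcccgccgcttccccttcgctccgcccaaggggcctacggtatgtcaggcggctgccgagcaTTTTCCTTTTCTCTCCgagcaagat
Eif2ak3: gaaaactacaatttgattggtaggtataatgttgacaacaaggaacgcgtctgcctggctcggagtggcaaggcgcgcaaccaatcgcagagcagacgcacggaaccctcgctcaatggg
Eif3f held CACGTG beginning at base -68 and a pyrimidine run of 15 bases across its start. Both eIF2 gamma genes held a marked run, of 12 bases in Eif2s3y, beginning at base 2, and of 16 in Eif2s3x, beginning at base -5. Only the Y-linked gene was called. Both RefSeq starts, chrY:1010595 and chrX:94212651, lie inside the deposited genes, which begin upstream at chrY:1010543 and chrX:94212709. The runs are therefore placed by RefSeq starts only. Eif4b and Eif2ak3 held neither motif in these windows. In the longer RefSeq windows of 300 bases (250 before the start), CACGTG was present in 12 of the 57 entries of initiation factor genes (21.1%), beside 7.15% of all 32851 entries. A pyrimidine run that came within 5 bases of the start was present in 10 of the 57 (17.5%), beside 9.38% of all. That count includes runs that end before the start and so lie outside the transcript, such as bases -12 to -3 of an Eif4e entry. The 57 entries belong to the 44 genes that matched by symbol, some with several starts. The genes with CACGTG were Eif1b, Eif3a, Eif3f, Eif3k, Eif4a1, Eif4e, Eif4g1, Eif4h, Eif5a and Eif5a2, of which only Eif3f was called. No RefSeq entry was matched for Eif1a, Eif2b3, Eif3e, Eif3h, Eif3i, Eif3j2, Eif4a3l2, Eif4e1b, Eif4e3, Eif4ebp1, Eif4ebp3, Eif4g2 and Eif6.

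The 14 rows of eIF3, the scaffold that binds the small subunit and the messenger RNA, held the most abundant transcript of all, Eif3h. Eif3h had 112, 111 and 107 FPKM in labelled KO, against 110, 109 and 110 FPKM in WT (log2 fold change -0.01, SE 0.03, adjusted p = 0.863). Eif3c, a core subunit, had 67.2, 68.1 and 66.3 FPKM in labelled KO and 71.0, 69.2 and 68.5 FPKM in WT, without overlap (log2 fold change -0.07, adjusted p = 0.132). Both lay within a narrow band, and neither was called.

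Eif3f fell in the libraries labelled KO. It encodes an eIF3 subunit with an MPN domain and lies at chr7:108934417-108942951 on the plus strand (mm10). Its level was 53.6, 54.8 and 52.3 FPKM in labelled KO, against 59.5, 60.2 and 59.1 FPKM in WT. All 3 libraries labelled KO were below all 3 WT libraries, by more than the range within either group. The log2 fold change was -0.17 (SE 0.03, adjusted p = 0.0101), a ratio of 0.889 with a 95% interval of 0.850 to 0.930. It was the only one of the 4 calls that held whichever library was left out, with log2 fold changes of -0.19 to -0.16. None of its longest coding transcript (2514 bases, beside 2891 in all its exons) was shared, in stretches of 50 bases, with another annotated gene.

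The core subunits Eif3a and Eif3b stayed close to level. Eif3a, the largest subunit, had 45.5, 44.7 and 44.1 FPKM in labelled KO and 45.2, 42.5 and 44.2 FPKM in WT, and Eif3b, an RNA-binding core subunit, had 51.8, 49.8 and 49.95 FPKM in labelled KO and 51.7, 52.0 and 51.9 FPKM in WT. The groups overlapped in both (log2 fold changes 0.01 and -0.05, adjusted p = 0.885 and 0.242). Eif3i, Eif3m and Eif3e had estimates of -0.15, -0.16 and -0.14 (adjusted p = 0.152, 0.22 and 0.23), about as large as that of Eif3f but with standard errors of 0.06 to 0.07. Eif3d, Eif3k, Eif3g, Eif3l and Eif3j1 had estimates of -0.08, -0.08, -0.03, 0.02 and 0.01, and none was called. Eif3j2 cannot be separated from Eif3j1, since 91.8% of its 50-base stretches also occur in another gene. It was listed at 0 in WT replicate 3 and at 1.58 to 3.81 FPKM elsewhere. Over the 14 rows 1 gene was called lower and none higher, 10 estimates lay below 0, and the median was -0.06. The summed FPKM of eIF3 was 491 ± 5.06 in labelled KO and 506.5 ± 4.21 in WT (SD, n = 3 each), a ratio of 0.970.

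The eIF2 group, which holds the 3 subunits of eIF2 and the alternative initiator tRNA carriers Eif2a and Eif2d, gave 1 call among 6 genes, and all 6 estimates lay below 0 (median -0.10). Eif2s3y, the Y-linked gene for the gamma subunit that binds GTP and the tRNA, fell. It lies at chrY:1010543-1028594 on the plus strand and had 2.98, 3.50 and 3.09 FPKM in labelled KO, against 4.66, 3.98 and 4.41 FPKM in WT. The groups did not overlap, and replicate 2 was the highest in labelled KO and the lowest in WT. The log2 fold change was -0.46 (SE 0.09, adjusted p = 0.0226), the largest fall among the initiation factor genes, with a ratio of 0.726 (95% interval 0.623 to 0.845). The call was lost when KO replicate 1 or 3 or WT replicate 1 or 3 was left out, with adjusted p up to 0.0803 and log2 fold changes of -0.53 to -0.41.

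Eif2s3x, which encodes a nearly identical gamma subunit from the X chromosome, was far more abundant and level. It had 32.5, 32.2 and 31.9 FPKM in labelled KO, against 32.2, 32.6 and 32.2 FPKM in WT (log2 fold change -0.02, SE 0.03, adjusted p = 0.635). The ratio of Eif2s3x to Eif2s3y FPKM was 10.9, 9.22 and 10.3 in labelled KO, against 6.91, 8.20 and 7.31 in WT. In the longest coding transcript of Eif2s3x, 36.2% of 50-base stretches occur in other annotated genes, while none in that of Eif2s3y do. For Eif2s3y that transcript has 1836 bases, beside 4161 in all its exons.

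Of the 10 tested genes on the Y chromosome, 3 were called, all lower: Eif2s3y, Kdm5d and Uty. The estimates lay above 0 for 5 of the 10 and below for the others, with a median of -0.06. Those above 0 were Mid1-ps1, Gm21860, Gm47283, Gm21748 and Gm21742, all between chrY:90752427 and chrY:90844040, with standard errors of 0.22 to 1.71. Those below 0 were Eif2s3y, Kdm5d, Uty, Ddx3y and the pseudogene Gapdh-ps15. Kdm5d, Uty, Ddx3y and Xist were picked for description after their values were seen. Kdm5d, a histone demethylase, had 0.584, 0.577 and 0.607 FPKM in labelled KO, against 0.928, 0.855 and 0.891 FPKM in WT (log2 fold change -0.61, adjusted p = 0.00252). Uty, a Y-linked relative of another histone demethylase, had 0.956, 1.001 and 0.980 FPKM in labelled KO and 1.14, 1.16 and 1.29 FPKM in WT (log2 fold change -0.31, adjusted p = 0.049). Ddx3y, an RNA helicase, overlapped between groups, with 3.99, 3.54 and 3.49 FPKM in labelled KO and 4.17, 3.88 and 4.38 FPKM in WT (log2 fold change -0.19, adjusted p = 0.184). Xist, the RNA of the inactive X chromosome, was present in the same libraries at 17.6, 16.9 and 16.7 FPKM in labelled KO and 17.3, 17.3 and 17.1 FPKM in WT (log2 fold change -0.03, adjusted p = 0.52). Every library thus held RNA of Y-linked genes and of Xist, and the part of the make-up of the cultures in the Eif2s3y difference was not tested.

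**Figure D2:**
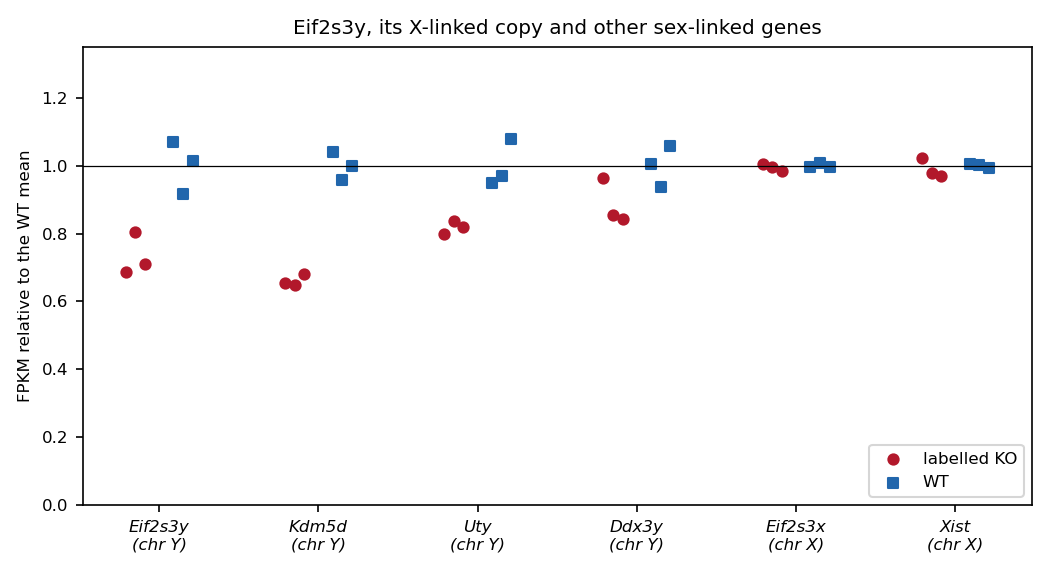
FPKM of each library divided by the gene's WT mean (vertical axis) for Eif2s3y, Kdm5d, Uty and Ddx3y on the Y chromosome and for Eif2s3x and Xist on the X chromosome, with libraries labelled KO as circles and WT as squares. The libraries labelled KO lie below WT for Eif2s3y, Kdm5d and Uty, overlap it for Ddx3y, and lie beside it for Eif2s3x and Xist.

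Eif2s1, the alpha subunit that the kinases phosphorylate, had 12.2, 12.4 and 11.9 FPKM in labelled KO and 12.2, 12.5 and 12.9 FPKM in WT, and was not called (log2 fold change -0.06, adjusted p = 0.384). Eif2s2, the beta subunit, had an estimate of -0.09 (adjusted p = 0.215), Eif2a one of -0.11 (0.156 as the adjusted p) and Eif2d one of -0.24 (0.105 as the adjusted p). The FPKM of the 4 eIF2 subunit genes added up to 59.4 ± 0.269 in labelled KO and 61.7 ± 0.708 in WT (SD, n = 3 each), a ratio of 0.963.

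Of the kinases that phosphorylate eIF2, Eif2ak3 rose. It encodes PERK, the endoplasmic reticulum kinase that responds to unfolded proteins, and lies at chr6:70844515-70905245 on the plus strand. Its level was 5.97, 6.23 and 5.99 FPKM in labelled KO, against 4.75, 4.43 and 5.16 FPKM in WT. Every library labelled KO was above every WT library. The log2 fold change was 0.33 (SE 0.06, adjusted p = 0.0218), a ratio of 1.25 with a 95% interval of 1.13 to 1.395. The estimate stayed between 0.28 and 0.39 when a library was left out, but the call was kept only without WT replicate 3 and was lost without any of the others (adjusted p up to 0.075). Another gene on the opposite strand covers 8.0% of its exonic sequence, and since strand is not stated those reads cannot be told apart. The same limit holds, with larger shares, for Eif3d (43.3%), Eif3j1 (19.0%), Eif5b (16.8%), Eif1ad (15.3%), Eif1b (12.7%) and Eif2ak1 (11.6%).

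The 2 other kinases differed from it in their values. Eif2ak1, the kinase that responds to heme shortage, had 15.2, 14.96 and 15.2 FPKM in labelled KO and 14.4, 15.01 and 15.1 FPKM in WT (log2 fold change 0.01, SE 0.03, adjusted p = 0.883). Eif2ak4, which encodes GCN2, the sensor of uncharged tRNA, had 2.45, 2.69 and 2.79 FPKM in labelled KO and 2.93, 3.03 and 2.90 FPKM in WT, without overlap but not called (log2 fold change -0.18, SE 0.07, adjusted p = 0.149). The difference between the kinases was not tested.

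None of the 5 genes of eIF2B, the exchange factor that recharges eIF2 with GTP, was called. Their estimates were 0.15 for Eif2b1, 0.15 for Eif2b2, -0.11 for Eif2b3, -0.06 for Eif2b4 and 0.00 for Eif2b5, with adjusted p from 0.167 to 0.985. Eif2b2 did not overlap between groups, with 18.4, 18.2 and 17.3 FPKM in labelled KO and 15.1, 16.9 and 16.1 FPKM in WT. The summed FPKM of eIF2B was 46.7 ± 0.849 in labelled KO and 44.0 ± 0.401 in WT (SD, n = 3 each), a ratio of 1.06. Eif2b3 was the least abundant subunit at 0.736 to 1.23 FPKM.

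Other genes that act on eIF2 phosphorylation were taken as a list of 9, of which 1 was called higher and 1 lower (22.2%). The share was 12.7% of all tested genes and 28.1% of those with a mean of at least 10 FPKM, a level that Gcn1 and Trib3 did not reach. Impact, which holds GCN2 back by competing for its activator, fell to 10.2, 9.94 and 10.1 FPKM in labelled KO, against 16.0, 16.0 and 15.8 FPKM in WT (log2 fold change -0.68, SE 0.03, adjusted p = 9.86e-05). Dnajc3, a chaperone that inhibits PERK, rose to 21.9, 22.9 and 23.6 FPKM in labelled KO, against 17.9, 18.6 and 18.9 FPKM in WT (log2 fold change 0.29, SE 0.04, adjusted p = 0.00709). Both calls held with any library left out. Gcn1, the activator of GCN2, had an estimate of 0.11 (adjusted p = 0.0885).

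Transcripts of the response downstream of phosphorylated eIF2 were not called. Atf4, its central transcription factor, had 42.6, 40.9 and 41.9 FPKM in labelled KO and 23.5, 46.6 and 22.7 FPKM in WT (log2 fold change 0.42, adjusted p = 0.403). WT replicates 1 and 3 were low and WT replicate 2 was the highest of the 6 libraries. Ddit3 had an estimate of -0.12, Trib3 one of -0.36 and Ppp1r15a, which encodes the phosphatase subunit that reverses the mark, one of 0.10, with adjusted p from 0.423 to 0.672.

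In the eIF4F group, with the helicases and their cofactors, 11 of 14 genes were tested, and 1 was called lower and none higher (median -0.08). Eif4b, the cofactor that stimulates the helicase, was called with a small difference. It lies at chr15:102073773-102097173 on the plus strand and had 79.7, 79.7 and 79.0 FPKM in labelled KO, against 82.0, 83.7 and 83.4 FPKM in WT. The groups did not overlap and each was tight. The log2 fold change was -0.08 (SE 0.02, adjusted p = 0.0349), a ratio of 0.946 (95% interval 0.918 to 0.975). Leaving out any one of the 6 libraries lost the call (adjusted p = 0.0543 to 0.105), and so did edgeR without a filter on low counts (adjusted p = 0.0583) and limma on FPKM (adjusted p = 0.0695 to 0.126).

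Eif4a1, the main helicase, had 59.1, 58.6 and 60.05 FPKM in labelled KO, against 61.0, 62.9 and 67.5 FPKM in WT. The groups did not overlap, but the gene was not called (log2 fold change -0.12, adjusted p = 0.101). Of its 50-base stretches, 65.3% occur in other annotated genes, and the pseudogene Eif4a-ps4 was listed at 43.2, 38.7 and 33.5 FPKM in labelled KO and 38.9, 45.7 and 40.4 FPKM in WT, so reads of the helicase may be divided between them. Eif4a2, its close relative, and Eif4a3, the helicase of the exon junction complex, had estimates of -0.09 and -0.10 (adjusted p = 0.173 and 0.168).

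Of the scaffolds, Eif4g1 had 44.9, 44.3 and 44.3 FPKM in labelled KO, against 41.5, 41.2 and 43.5 FPKM in WT, without overlap and without a call (log2 fold change 0.06, adjusted p = 0.175). Eif4g2, which encodes a scaffold that does not bind eIF4E, had 42.7, 42.7 and 41.1 FPKM in labelled KO and 43.1, 44.4 and 44.5 FPKM in WT (log2 fold change -0.08, adjusted p = 0.0893). Eif4g3 had an estimate of -0.03. The summed FPKM of the scaffolds was 102 ± 1.12 in labelled KO and 101 ± 2.30 in WT (SD, n = 3 each).

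Among the cap-binding proteins, Eif4e3 came closest to a call. It had 18.9, 19.4 and 18.7 FPKM in labelled KO, against 16.2, 16.2 and 17.5 FPKM in WT (log2 fold change 0.17, SE 0.05, adjusted p = 0.0567). The groups did not overlap, and the gene passed the threshold in DESeq2 (adjusted p = 0.0223), in limma with a filter on low values and without WT replicate 3 (adjusted p = 0.0443). Eif4e2, a cap-binding relative that acts in repression, had an estimate of -0.03 (adjusted p = 0.68).

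Eif4e, the main cap-binding gene, gave a value that turned on single libraries. It had 8.84, 9.10 and 9.37 FPKM in labelled KO, against 3.92, 9.66 and 4.10 FPKM in WT. WT replicate 2 lay just above the libraries labelled KO, and the other WT libraries lay far below all of them. With all 6 libraries the log2 fold change was 0.61 (SE 0.35, 95% interval -0.22 to 1.44, adjusted p = 0.329), the largest estimate among the initiation factor genes. Without WT replicate 2 it was 1.17 and was called (adjusted p = 0.000783). The low libraries were the same as for Atf4.

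A spread of this kind, with the highest replicate of a group more than 1.5 times the lowest, was found in 4 of the 45 initiation factor genes with a mean of at least 5 FPKM (8.89%) and in 9.69% of all tested genes at that level. The others were Eif4h, Eif1a and Eif5. Eif4h, the small relative of Eif4b, had 15.6, 36.4 and 35.8 FPKM in labelled KO, against 38.3, 38.3 and 37.4 FPKM in WT. Its estimate of -0.39 became -0.09 without KO replicate 1. Eif1a, a scanning factor, had 21.3, 8.87 and 21.0 FPKM in labelled KO, against 21.4, 21.9 and 21.5 FPKM in WT, and its estimate of -0.35 became -0.04 without KO replicate 2. In both genes the groups did not overlap, but the remaining libraries labelled KO lay close below WT. Eif5, the GTPase activator of eIF2, had 9.005, 14.8 and 15.4 FPKM in labelled KO, against 9.42, 14.6 and 17.1 FPKM in WT. Replicate 1 was the low library in each group, and the estimate of -0.09 changed sign to 0.12 without KO replicate 1 and to 0.11 without WT replicate 3. None of these 3 genes was called in any of those fits. FPKM were in proportion to the estimated counts, so both deposited values show the pattern. Apart from such libraries replicates were close, and the median coefficient of variation of the 45 genes was 2.80% in labelled KO and 3.18% in WT.

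**Figure D3:**
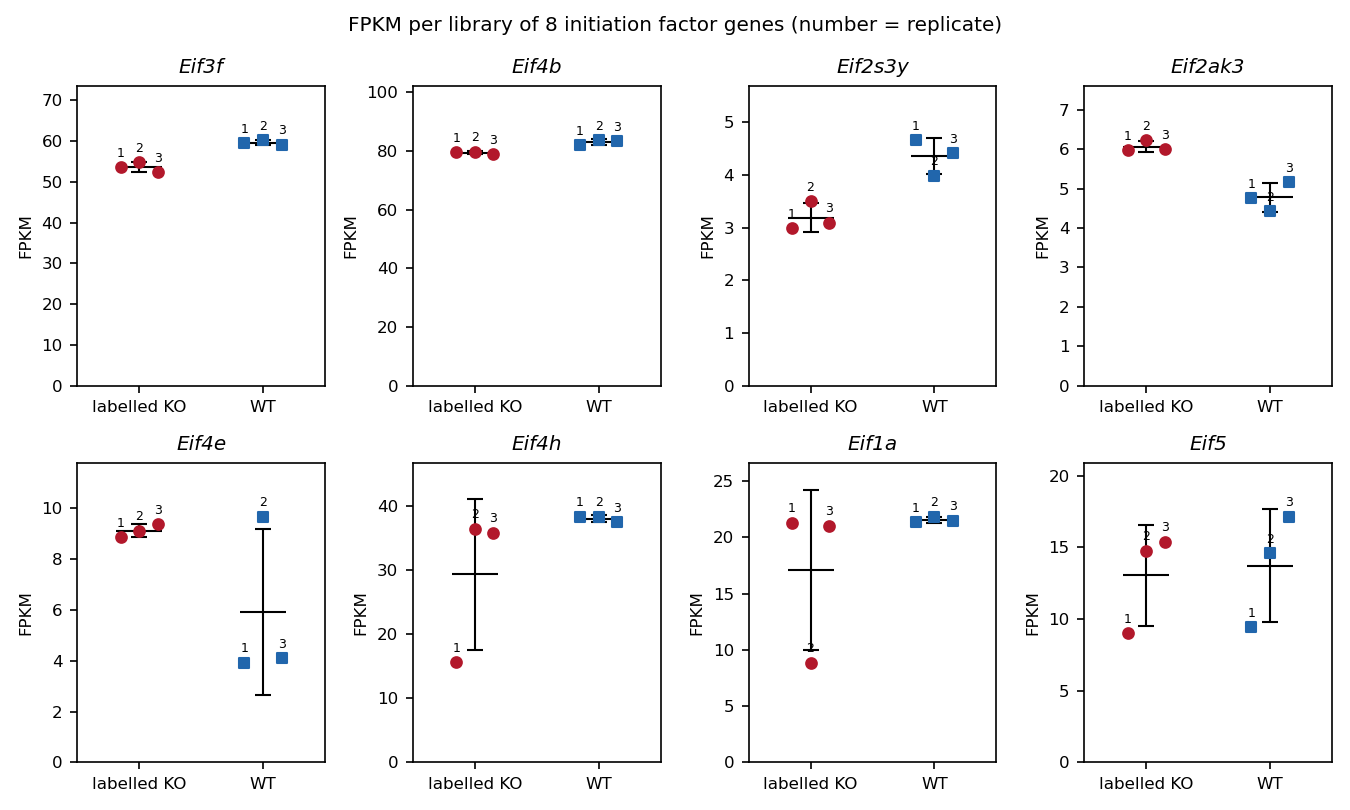
FPKM per library (vertical axes from 0) of the 4 called genes in the upper row and of the 4 genes with a wide spread between replicates in the lower row, labelled KO as circles and WT as squares, numbered by replicate, with the mean and SD. In the upper row the groups separate, and in the lower row some libraries stand far below the others. These are WT replicates 1 and 3 for Eif4e, KO replicate 1 for Eif4h, KO replicate 2 for Eif1a and replicate 1 of each group for Eif5.

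The remaining genes grouped here with the scanning factors were Eif1, Eif1b, Eif1ax and Eif1ad. Eif1, which guards the choice of the start codon, was the most abundant with 54.7, 53.8 and 54.7 FPKM in labelled KO, against 62.5, 59.97 and 54.3 FPKM in WT. WT replicate 3 lay among the libraries labelled KO. The log2 fold change was -0.13 (adjusted p = 0.176), and without WT replicate 3 it was -0.19 and was called (adjusted p = 0.0351). Eif1b, its paralog, had an estimate of 0.06, and Eif1ax and Eif1ad, both related to eIF1A, had estimates of 0.14. Of the 6 genes of this group none was called, and the median was -0.01.

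All 4 genes of the eIF4E-binding group had estimates above 0, with a median of 0.13, and none was called. Eif4ebp1 had 16.4, 17.5 and 16.8 FPKM in labelled KO, against 15.7, 15.02 and 13.9 FPKM in WT (log2 fold change 0.17, SE 0.06, adjusted p = 0.132). Eif4ebp2, the most abundant of them, had 26.9, 26.7 and 28.1 FPKM in labelled KO, against 25.5, 25.2 and 24.8 FPKM in WT (log2 fold change 0.10, SE 0.03, adjusted p = 0.0976). In both the groups did not overlap. Eif4ebp3 was near the floor at 0.276, 0.189 and 0.285 FPKM in labelled KO and 0.393, 0.141 and 0.0793 FPKM in WT (log2 fold change 0.22, SE 0.66, adjusted p = 0.875). Eif4enif1, which encodes the eIF4E transporter, had an estimate of 0.02. The summed FPKM of the 3 binding proteins was 44.4 ± 0.810 in labelled KO and 40.2 ± 1.401 in WT (SD, n = 3 each), a ratio of 1.103.

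The last group acts at subunit joining and after it. Eif5a, which helps the ribosome through difficult peptide bonds, had 88.6, 91.8 and 92.1 FPKM in labelled KO, against 95.6, 99.96 and 90.7 FPKM in WT (log2 fold change -0.09, adjusted p = 0.23), and the groups overlapped. Its paralog Eif5a2 was far lower, with 1.77, 1.59 and 1.47 FPKM in labelled KO and 1.905, 1.83 and 1.92 FPKM in WT (log2 fold change -0.25, adjusted p = 0.133). Eif5b, the joining factor, and Eif6, which keeps free large subunits from joining, had estimates of -0.02 and 0.03. None of the 4 was called.

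Mean levels of the tested genes ran from 0.227 FPKM for Eif4ebp3 to 109.7 FPKM for Eif3h. The 10 highest by mean FPKM were Eif3h, Eif5a, Eif4b, Eif3c, Eif4a1, Eif1, Eif3f, Eif3b, Eif3a and Eif4g1, the last at 43.3 FPKM. The order depends on the length used. The deposited FPKM follow from the counts when each gene is given the length of all its annotated exons together, which lowers genes with long alternative exons. Per kilobase of the longest coding transcript, Eif5a came first and Eif4a1 second, and Eif3k was 4 and Eif3e 7 in rank, against 12 and 25 by FPKM. Of the untested genes, Eif4a3l1 and Eif4a3l2, named for their likeness to Eif4a3, had at most 0.0762 FPKM. Eif4e1b, known from oocytes, and Eif2c5 had a count of 0 in every library.

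**Figure D4:**
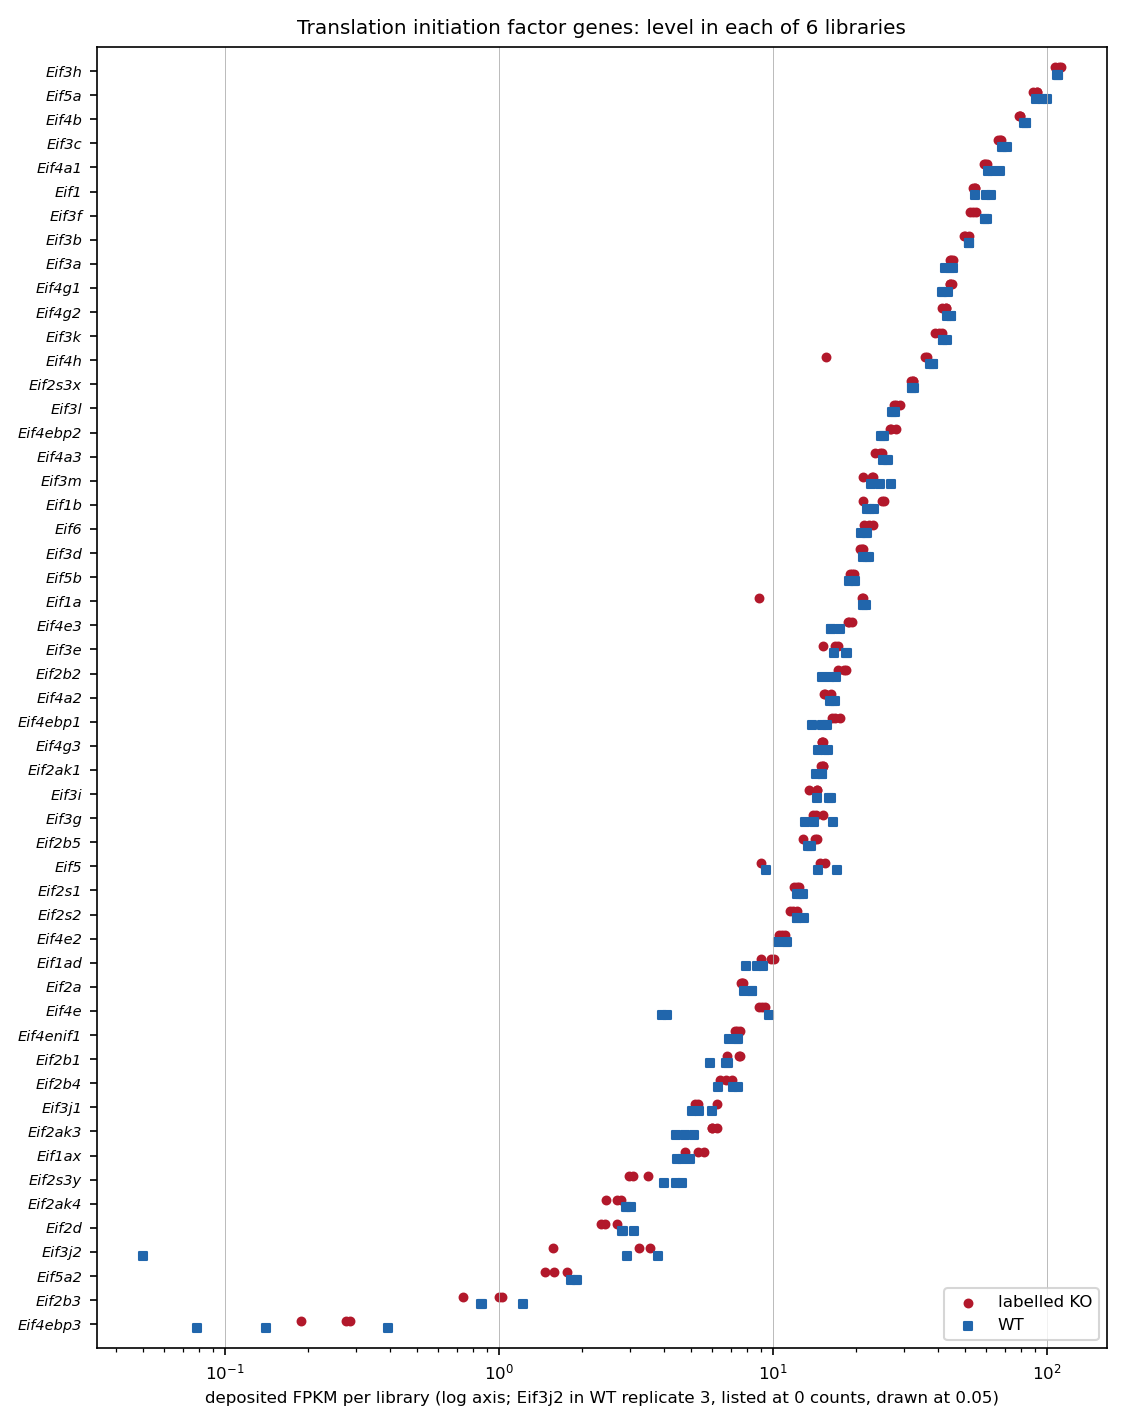
FPKM in each library on a log axis for the 53 tested initiation factor genes, ordered by their mean, with labelled KO as circles above WT as squares. Eif3h is at the top and Eif4ebp3 at the bottom. On this axis the points of both groups lie close together for most genes, though their FPKM do not overlap for 22 of the 53. The low libraries of Eif4h, Eif1a, Eif5 and Eif4e stand apart, as does Eif3j2 in WT replicate 3, which has a count of 0 and is drawn at a floor above its listed value.

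The wider translation machinery was taken as 4 lists with 59 tested genes, of which 2 were called higher and 6 lower, 13.6% in all and near the 12.7% of all tested genes (7.01% higher and 5.67% lower). The 26 initiation partners and regulators gave 1 higher and 2 lower. Pabpc1, the poly(A)-binding protein that bridges to eIF4G, had 112, 110 and 110 FPKM in labelled KO, against 124, 122 and 124 FPKM in WT (log2 fold change -0.17, SE 0.02, adjusted p = 0.000855). Mknk2, a kinase that phosphorylates eIF4E, had 43.4, 44.3 and 44.6 FPKM in labelled KO, against 53.8, 53.4 and 52.8 FPKM in WT (log2 fold change -0.29, SE 0.02, adjusted p = 0.000796). Both were below WT in every library, and both calls held with any library left out. Gigyf2, a partner of Eif4e2 in repression, had 4.30, 3.83 and 3.95 FPKM in labelled KO, against 3.26, 3.29 and 3.21 FPKM in WT (log2 fold change 0.29, SE 0.05, adjusted p = 0.0144), and its call was lost without any one of the WT libraries (adjusted p up to 0.0548). Larp1, which binds pyrimidine-run messages, had an estimate of 0.21 (adjusted p = 0.0597).

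Elongation and termination gave 3 lower and none higher among 15 genes. Of all tested genes 5.67% were called lower, and 13.4% of those with a mean of at least 10 FPKM. Of the 15, only Eef1a1, Eef1b2, Eef1g, Eef2, Etf1 and Gspt1 reached that level, and the 3 called genes are all among them. Eef2, the translocase, averaged 600.3 ± 2.53 FPKM in labelled KO and 634 ± 3.13 FPKM in WT (SD, n = 3 each; log2 fold change -0.10, adjusted p = 0.00169). Eef1g, a subunit of the exchange factor of elongation, averaged 95.1 ± 1.02 FPKM in labelled KO and 103 ± 0.906 FPKM in WT (SD, n = 3 each; log2 fold change -0.13, adjusted p = 0.0116). These calls held with any library left out. Etf1, the release factor, averaged 31.2 ± 0.433 FPKM in labelled KO and 34.5 ± 1.59 FPKM in WT (SD, n = 3 each; log2 fold change -0.16, adjusted p = 0.0451), a call kept only without WT replicate 1 among the fits that left out a library. Eef1a1, the tRNA carrier of elongation, averaged 2035 ± 22.3 FPKM in labelled KO and 2061 ± 31.2 FPKM in WT (SD, n = 3 each; log2 fold change -0.04, adjusted p = 0.16). None of the 9 mitochondrial translation factors was called by edgeR, and 2 (22.2%) had p under 0.05 without correction, beside 26.5% of all tested genes. Together the lists had a median log2 fold change of -0.05, the same to this precision as the initiation factors.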

How the data were processed

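RNA sequencing covered 6 libraries. The submitters' processing notes name StringTie 1.3.4d, HISAT2 2.0.4, cutadapt 1.9 and the build mm10. Settings, annotation release and strand were not given in the sources used here. Per the file headers, the authors deposited FPKM and an estimated count for each gene and library, and a count of 0 carries an FPKM of 0.0001. Every column of per-library values was used.

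Samples were grouped by genotype label. Estimated counts were rounded and tested with edgeR 4.0.16 (R 4.3.3): TMM scaling, filterByExpr (minimum count 10, minimum total 15), glmQLFit and glmQLFTest, with Benjamini-Hochberg adjustment over all 16256 tested genes and a call at an adjusted p under 0.05. The code was tested on simulated data. Standard errors are the fold change divided by the root of F, and 95% intervals use edgeR's total degrees of freedom (6.496). Alternatives were median-of-ratios factors, DESeq2 1.42.0, other filters, limma 3.58.1 on log2(FPKM + pseudocount), a replicate block and each library left out. Genes and lists were chosen with earlier results of these data known. Named are all called genes, the 10 most abundant, the kinases and the binding proteins, and every other gene briefly. Sets were described by counts and medians, with no set test. Exons and shared 50-base stretches were read from GENCODE M21 (same build), and promoters from RefSeq tables. Shared stretches were counted over the longest coding transcript of a gene, not over all its exons. One further gene whose symbol fits the pattern is not reported here.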

Additional observations from a re-analysis of the deposited data

How the results depend on the processing

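Counts of calls moved with the fit. Among all tested genes 2060 were called, 1244 to 1339 with a library left out and 1012 with the replicate number as a block. Same-numbered libraries correlated at 0.033, 0.038 and 0.102 in their deviations from the group means, and differently numbered ones at -0.084 to 0.045. The main fit did not take the numbers to pair libraries, and whether they do was not tested. With the block, which called 6.23% of tested genes, 0 initiation factor genes were called higher by edgeR and 1 lower (Eif3f), and the adjusted p was 0.0767 for Eif2ak3, 0.0966 for Eif2s3y and 0.109 for Eif4b. Of these genes, 2 were called higher by DESeq2 (which called 17.1% of tested genes in either direction), by edgeR with a mean FPKM of at least 1 (20.7%) and by limma with each pseudocount (0.01, 0.1 and 1; 16.9% to 17.0%), the second being Eif4e3. With a library left out, 0 to 2 were called higher and 1 to 2 lower (7.41% to 7.97% of tested genes in either direction). DESeq2 called 4 genes of the wider lists higher, and 1 to 2 were called higher with a library left out. The filter and scaling alternatives gave other counts within 1.5 times.

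Of 925 comparisons of a single gene with its alternative, 850 kept direction and side of the threshold, 40 lost a call, 10 gained one and 25 changed sign, in genes with estimates close to 0, weak expression or a low library. Eif2b5 was -0.0033 with a mean FPKM of at least 1, and Eif3h was 0.0066 in limma with pseudocounts of 0.01 and 0.1 (with and without a filter) and 0.0065 with 1. With a library left out the log2 fold change ran from -0.066 to 0.11 for Mettl3, -0.012 to 0.026 for Eif2ak1, -0.20 to 0.075 for Eif2b3, -0.028 to 0.052 for Eif2b5, -0.015 to 0.029 for Eif3a, -0.096 to 0.075 for Eif3g, -0.025 to 0.0059 for Eif3h, -0.080 to 0.082 for Eif3j1, -0.29 to 0.91 for Eif3j2, -0.15 to 1.04 for Eif4ebp3, -0.018 to 0.038 for Eif4enif1 and -0.30 to 0.12 for Eif5. The causes were not tested. With 3 libraries a group, small changes of weakly expressed genes such as Eif4ebp3 and Eif2b3 were not detectable at this depth, and genes that share sequence may exchange counts.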
